A study of Mus musculus with 5 samples.

Results

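The Mmp8 Retnlg neutrophils of mouse bone marrow were followed at 5 time points, from day 0 to day 12 after transplantation of leukemia cells, with 1 mouse per day. Members were single-cell barcodes that held at least 2 unique molecular identifiers (UMIs, 1 per captured RNA molecule) of Mmp8, at least 5 of Retnlg, fewer than 5 of Ltf, fewer than 3 of Fcnb and 0 of Csf1r. A barcode also needed at least 500 UMIs in all, with at most 10% of them from mitochondrially encoded (mt-) genes. These limits were met by 4282 of 29679 barcodes that passed the limits on UMIs and mt- genes. The cell calling of the study was not repeated, and the study kept fewer barcodes in every library. The mice were 8-week-old C57BL/6J animals that were not irradiated. Every mouse, the day 0 animal included, received 1000 BCR-ABL1 pre-B acute lymphoblastic leukemia cells through the tail vein. Marrow was taken at once for day 0 and at days 3, 6, 9 and 12 for the others, so that day 0 is not an untransplanted control. The cells came from flushed and enzymatically digested femurs and tibias and were frozen before capture on the 10x 3′ platform. With 1 mouse per day, no difference between days was tested. Intervals are exact, at 95%, and cover counting error only, not the differences between mice.

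Neutrophils fill their granules in sequence as they mature in the marrow. Primary granules with serine proteases are made in promyelocytes, secondary granules with lactoferrin (Ltf) and cathelicidin (Camp) in myelocytes, and gelatinase granules with metalloproteinases in metamyelocytes and band cells. Mature cells carry receptors for chemokines, formyl peptides and complement, and in response to microbial products they make chemokines such as Cxcl2 and Ccl3 and the cytokine interleukin 1 beta. Mmp8 encodes neutrophil collagenase and Retnlg a small secreted protein of the resistin family that is abundant in mouse neutrophils.

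The 5 libraries held 33425695 to 43554233 UMIs, and the barcodes that passed had a median of 3143 to 4397 UMIs. The limit on mt- genes removed at least 5.21% of barcodes with at least 500 UMIs in every library. Any pair of libraries shared 40 to 61 barcode sequences. The members had a median of 2591, 2997, 2760, 2555.5 and 2592 UMIs and of 644.5, 725, 721, 677 and 642 genes from day 0 to day 12, so depth differed little between days.

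Promoter sequences are shown for the genes that set the gate and for the chemokine genes with the largest decreases described below. Each is the 250 bases before the RefSeq start of the gene on GRCm38.p6, read 5′ to 3′ on the strand of the gene. Capitals mark matches, on either strand, to the motifs GGGANNNNCC (bound by NF-kappaB), TGANTCA (AP-1), TGACGTCA (the cyclic AMP response element), TTGCNNAA (C/EBP) and GAGGAA (a core of PU.1 sites).
Retnlg promoter, chr16:48872358-48872607, plus strand: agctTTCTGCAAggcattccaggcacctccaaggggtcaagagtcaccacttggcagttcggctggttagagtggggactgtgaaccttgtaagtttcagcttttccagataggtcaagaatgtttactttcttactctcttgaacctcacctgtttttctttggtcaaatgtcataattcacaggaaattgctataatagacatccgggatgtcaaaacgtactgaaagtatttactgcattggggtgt
Mmp8 promoter, chr9:7558179-7558428, plus strand: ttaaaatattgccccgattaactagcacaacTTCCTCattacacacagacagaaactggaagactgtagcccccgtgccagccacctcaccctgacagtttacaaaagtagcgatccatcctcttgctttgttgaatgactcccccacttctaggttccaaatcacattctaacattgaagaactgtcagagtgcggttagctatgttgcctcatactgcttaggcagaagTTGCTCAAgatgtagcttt
Cxcl2 promoter, chr5:90903649-90903898, plus strand: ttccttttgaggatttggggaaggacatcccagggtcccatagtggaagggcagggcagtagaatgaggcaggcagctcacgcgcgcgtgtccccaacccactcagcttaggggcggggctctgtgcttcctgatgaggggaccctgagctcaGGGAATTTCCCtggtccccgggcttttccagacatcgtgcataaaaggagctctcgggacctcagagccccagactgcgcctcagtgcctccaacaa
Ccl3 promoter, chr11:83649379-83649628, minus strand: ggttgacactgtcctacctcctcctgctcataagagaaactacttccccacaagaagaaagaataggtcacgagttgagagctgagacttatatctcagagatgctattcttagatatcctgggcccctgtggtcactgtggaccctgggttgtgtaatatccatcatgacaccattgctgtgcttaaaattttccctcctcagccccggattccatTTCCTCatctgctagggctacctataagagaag
The Retnlg window held a match to TTGCNNAA that began 246 bases before the start. The Mmp8 window held a match to TTGCNNAA at 19 bases and a match to GAGGAA, on the other strand, at 219 bases. In the Cxcl2 window, overlapping matches to GGGANNNNCC began 97 and 96 bases before the start, and the Ccl3 window held GAGGAA on the other strand at 33 bases. No match overlapped a match to another motif. Of 32851 promoter windows of this length, 17.6% held GGGANNNNCC, 6.75% TGANTCA, 1.55% TGACGTCA, 9.56% TTGCNNAA and 23.3% GAGGAA. The lists of 14 cytokine and 23 immediate-early genes used below matched 31 windows, where the corresponding shares were 35.5%, 12.9%, 6.45%, 3.23% and 25.8%, or 11, 4, 2, 1 and 8 windows of the 31. The lists were written with earlier results of these data known and include regulators of NF-kappaB. They were given 1 window per gene, while the 32851 windows were not reduced in this way, so the shares are not strictly alike. No difference between them was tested. A match is a string of letters and not a measured binding site.

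The gate genes describe the members and are not findings. Median Retnlg counts were 136.5, 142, 112, 110 and 145 UMIs per member from day 0 to day 12, and Retnlg (chr16:48872621-48874496 on GRCm38) took 3.71 to 5.29% of their UMIs. Median Mmp8 counts (chr9:7558456-7568485) were 3 to 4 UMIs, so that many members lay close to the lower limit. Just inside it, 201, 163, 219, 300 and 294 members had exactly 2 UMIs of Mmp8, and just outside it 301, 320, 431, 505 and 493 barcodes with all other limits met had 1. At the Ltf limit, 19, 32, 47, 57 and 58 members had 4 UMIs and 19, 27, 34, 49 and 45 barcodes outside had 5. The Retnlg limit was met with 5 to 9 UMIs by 15, 25, 48, 42 and 16 members, and missed by 50, 18, 23, 22 and 3 barcodes. Csf1r, the monocyte receptor, kept out 64, 135, 212, 177 and 98 barcodes that met the other limits, and Fcnb kept out 0, 2, 7, 4 and 5.

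Most members had the profile of neutrophils. S100a8 and S100a9, the calcium-binding proteins that dominate neutrophil RNA, took a median of 37.8%, 37.6%, 35.6%, 35.5% and 40.5% of a member's UMIs. A minority went against the label. S100a8 and S100a9 together stayed under 15% of UMIs in 23, 50, 86, 93 and 37 members, or 3.87%, 6.68%, 9.65%, 8.74% and 3.76%. These S100-poor members were deep, with a median of 7161, 9959, 7454.5, 8250 and 6315 UMIs, and carried 12.6%, 24.3%, 25.0% and 24.5% of all member UMIs at days 0, 3, 6 and 9 and less than 12.6% at day 12. Their median mt- share was 1.87 to 3.00%, against 0.300%, 0.485%, 0.615%, 0.656% and 0.399% over all members.

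The lists for other cells were high in the S100-poor members. Over 15 cell cycle genes the summed level was 83.5 to 97.0 UMIs per 10000 in the S100-poor members of the 5 libraries and 18.7 to 20.7 in the others, here called S100-rich. The 7 monocyte genes gave 39.9 to 57.1 against 10.1 to 16.0, and the 8 primary granule genes 23.5 to 41.5 against 2.46 to 4.11. The 8 B cell genes gave 5.98 to 196 against 1.45 to 8.17, and reached 97.1 to 249 in barcodes with at least 2 UMIs of Cd79a, a B cell receptor subunit. Over all members, the lists for T and NK cells (0.805 to 1.58), macrophages (0.122 to 0.237), eosinophils (0.0234 to 0.151) and platelets (0 to 0.0457) were near 0. Erythroid genes lay at 0.0180 to 8.97, highest at day 6, and basophil and mast cell genes at 0.0117 to 1.31, highest at day 9. Since free RNA reaches every droplet, barcodes with at least 2 UMIs of Cd79a serve here as a comparison for neutrophil RNA. Of them, 12.0 to 51.8% also held 5 or more UMIs of Retnlg. Of the same barcodes, 1.80 to 8.22% held 2 or more UMIs of Mmp8. Members had been left out of the Cd79a barcodes, which lowers both shares by construction. Barcodes with 5 or more UMIs of Ltf, or fewer than 2 of Mmp8, were not left out. At days 3 and 6 the deepest Cd79a barcode had the same total, 54807 and 39458 UMIs, as the deepest with 5 or more of Ltf. S100a8 and S100a9 stayed under 5% of UMIs in 90.2 to 95.4% of the Cd79a barcodes. The set can therefore hold neutrophils or doublets and is not a floor free of neutrophil RNA. Comparisons between days are therefore given for all members and, for the lists, also for the S100-rich members alone, a limit chosen after the data were seen.

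**Figure D1:**
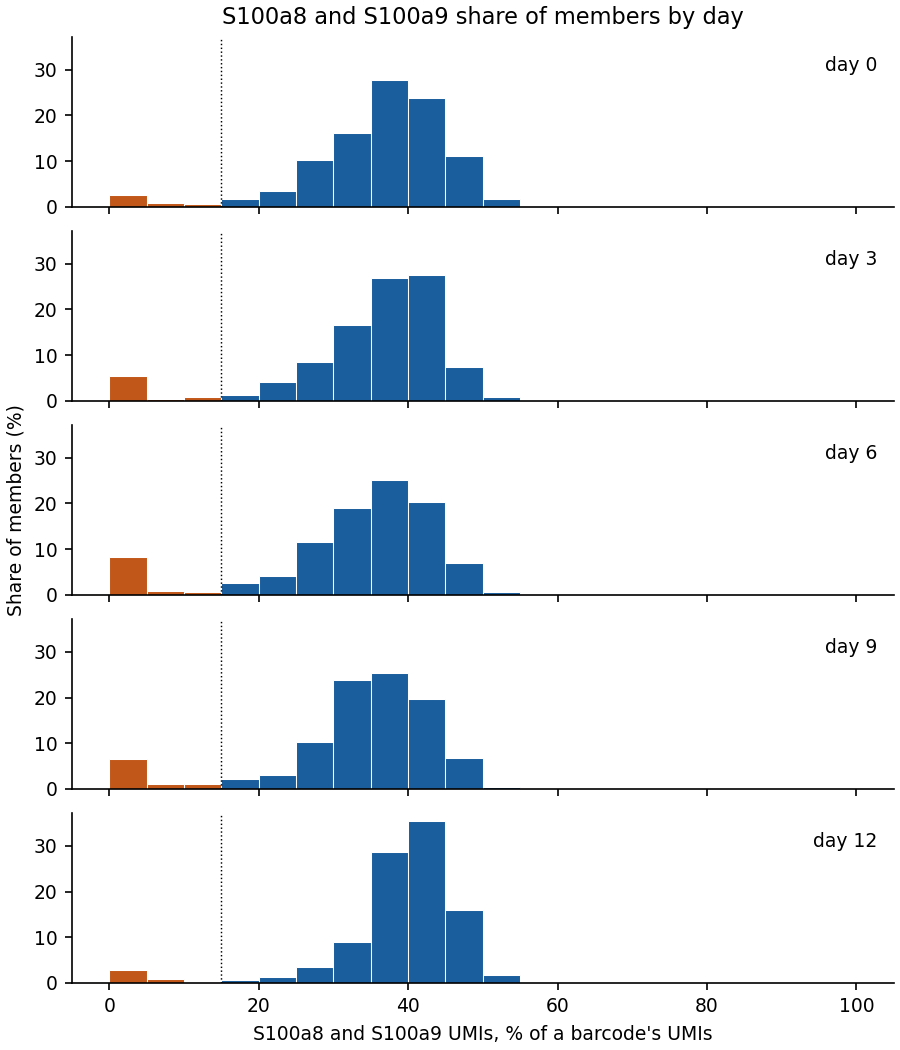
Histograms, 1 per day, of the S100a8 and S100a9 share of each member's UMIs (x axis, percent, bars 5% wide) against the share of members (y axis, percent), with a dotted line at 15% and the S100-poor members in orange. Most members lie above 30%, and few lie between 10 and 20% (13, 16, 29, 34 and 8 members), while the S100-poor ones are most frequent at days 6 (9.65%) and 9 (8.74%).

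The share of Mmp8 Retnlg neutrophils among passing barcodes was lowest in the day 0 library. It was 9.49% (95% interval 8.78 to 10.2%, 594 of 6259 barcodes) at day 0, 15.4% (14.4 to 16.4%, 749 of 4870) at day 3, 14.7% (13.9 to 15.7%, 891 of 6041) at day 6, 15.3% (14.5 to 16.2%, 1064 of 6944) at day 9 and 17.7% (16.7 to 18.7%, 984 of 5565) at day 12. The intervals of days 3, 6 and 9 overlapped, and neither that of day 0 nor that of day 12 overlapped any other. Barcodes that met the same limits but held 5 or more UMIs of Ltf, an earlier granule stage, made up 8.87%, 18.2%, 16.0%, 18.3% and 23.3%. A share depends on the other cells of the sample. When barcodes with at least 2 UMIs of B or T cell genes were left out, the members made up 13.1%, 18.3%, 19.1%, 18.8% and 19.0%, so that day 0 was again lowest and days 3 to 12 lay between 18.3 and 19.1%. With every barcode thinned to 1500 UMIs, the share at day 0 was 8.07% and at day 12 15.7%.

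**Figure D2:**
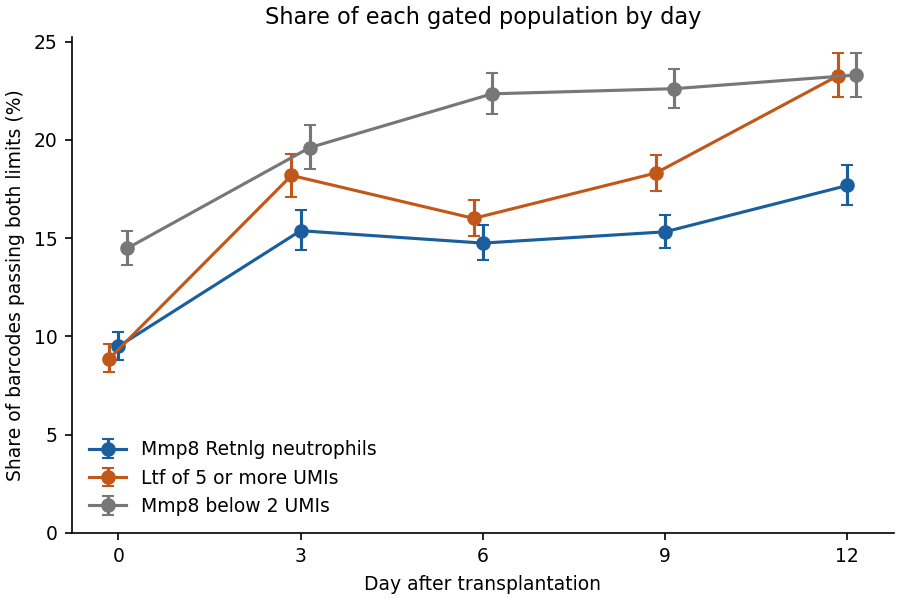
Share of passing barcodes in percent against day after transplantation for the Mmp8 Retnlg neutrophils, for barcodes with 5 or more UMIs of Ltf and for barcodes with fewer than 2 of Mmp8, with exact 95% intervals. The Mmp8 Retnlg neutrophils lie at 9.49% at day 0 and at 14.7 to 17.7% at the later days.

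The 3 markers that the gate did not use stood well above their level in Cd79a barcodes, from which members were left out, in every library. Levels are summed UMIs of a gene per 10000 summed UMIs of the cells named, and they are not corrected for transcript length. Mmp9, gelatinase B (chr2:164940780-164955850), lay at 9.5, 11.3, 10.7, 12.0 and 12.9 from day 0 to day 12, against 0.441 to 1.40 in Cd79a barcodes. Ceacam10, a secreted member of the carcinoembryonic antigen family (chr7:24777206-24784657), lay at 2.04, 2.07, 1.93, 2.27 and 2.55, against 0.145 to 0.249. Fpr1, a formyl peptide receptor (chr17:17876471-17883940), lay at 1.70, 1.41, 1.32, 1.36 and 1.73, against 0.0608 to 0.167. No marker passed 1.5-fold from day 0 at any later day, and their log2 ratios ran from −0.36 to 0.44. After thinning to 1500 UMIs, which left 536, 697, 809, 967 and 887 members, Mmp9 had a UMI in 73.7 to 82.3% of members and 3.81 to 17.6% of Cd79a barcodes. The shares were 23.3 to 31.2% against 1.61 to 5.49% for Ceacam10 and 19.3 to 24.7% against 0.586 to 2.28% for Fpr1.

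For each later day, the summed UMIs of the members were compared with those of day 0, gene by gene, where both libraries together held at least 50 UMIs of a gene. A gene was called higher or lower when its log2 ratio, with 1 count added to each sum, passed 1.5-fold. All 4 comparisons share the day 0 library, and so a peculiarity of that 1 mouse enters all of them. At day 3, 882 of 4682 genes (18.8%) were higher and 172 (3.67%) lower. At day 6, 983 of 4928 (19.9%) were higher and 145 (2.94%) lower, and at day 9, 1039 of 5053 (20.6%) were higher and 178 (3.52%) lower. Over all members the day 12 library was closer to day 0 by this count, with 223 of 4379 genes (5.09%) higher and 260 (5.94%) lower. It was not closer than day 3 in S100-rich members, where 361 genes at day 3 and 434 at day 12 were called in either direction. After thinning to 1500 UMIs the numbers at these days were 250 and 261.

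In S100-rich members the excess of higher genes was absent at day 3 and smaller, but present, at days 6 and 9. The part of the S100-poor members was not tested. Among S100-rich members, 173 of 3371 genes (5.13%) were higher and 188 (5.58%) lower at day 3. At day 6 the numbers were 309 of 3574 (8.65%) and 137 (3.83%), at day 9 398 of 3752 (10.6%) and 176 (4.69%), and at day 12 203 of 3621 (5.61%) and 231 (6.38%). The median log2 ratio over all genes was 0.17, 0.22, 0.23 and −0.03 in all members and 0.04, 0.09, 0.12 and −0.01 in S100-rich members. With ratios centred on the median gene, 558 genes were higher and 355 lower at day 3, 499 and 355 at day 6, 474 and 472 at day 9, and 250 and 230 at day 12.

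The chemokine and cytokine transcripts were lower at days 3, 6 and 9. Of 12 genes with enough UMIs in a list of 14 chemokines, cytokines and regulators of NF-kappaB, 8, 7, 7 and 1 were lower at days 3, 6, 9 and 12 and none was higher, with median log2 ratios of −1.06, −0.61, −0.91 and −0.25. The percentages of all genes called lower were 3.67%, 2.94%, 3.52% and 5.94%. In S100-rich members 7, 6, 7 and 2 were lower and 0, 1, 0 and 0 higher. Centring on the median gene moved the list medians to −1.23, −0.83, −1.14 and −0.22.

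Cxcl2, a chemokine that attracts neutrophils through Cxcr2, had the largest decrease of any gene with at least 200 UMIs at days 3, 6 and 9. Its summed UMIs in members were 2237, 299, 649, 621 and 3206, or 13.1, 1.10, 2.17, 1.89 and 11.5 per 10000 from day 0 to day 12. The libraries of days 0 and 12 were high and the others low, without overlap of their intervals. The log2 ratios to day 0 were −3.56 (interval −3.75 to −3.39), −2.60 (−2.73 to −2.47), −2.79 (−2.92 to −2.66) and −0.19 (−0.27 to −0.11) for Cxcl2 at days 3, 6, 9 and 12. In S100-rich members the Cxcl2 ratios were −3.36, −2.48, −2.56 and −0.14. At 1500 UMIs per cell, Cxcl2 had a UMI in 42.7%, 10.6%, 17.7%, 15.1% and 49.9% of members, against 2.28 to 9.89% of Cd79a barcodes. At least 5 UMIs of Cxcl2 were found in 15.9%, 0.861%, 1.73%, 1.55% and 13.8% of members. Cxcl2 in barcodes with at most 100 UMIs, which hold free RNA, lay at 5.26, 1.29, 2.22, 1.56 and 6.85 per 10000. At days 3 and 6 the level in members did not exceed it, while Cd79a barcodes held 0.678, 0.112, 0.385, 0.221 and 0.463. Here and below, a free RNA level is a share of free RNA alone. How much of a member's UMIs came from free RNA was not measured, so a level below that of free RNA is not a test of background.

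Other genes of the group were also lower at days 3, 6 and 9. Ccl3, the chemokine MIP-1 alpha, lay at 4.09, 0.465, 0.894, 0.658 and 3.29 per 10000, with log2 ratios of −3.13, −2.19, −2.63 and −0.31. At 1500 UMIs it was found in 24.8%, 5.31%, 7.17%, 5.48% and 25.8% of members. Free RNA held Ccl3 at 0.767 to 2.99, and at days 3, 6 and 9 the level in members was below that of free RNA. Ccl4, the related MIP-1 beta, lay at 0.932, 0.281, 0.551, 0.311 and 1.31. Free RNA held Ccl4 at 1.02, 0.421, 0.578, 0.480 and 0.974, above the members at days 0, 3, 6 and 9. Osm, the cytokine oncostatin M, lay at 1.73, 0.824, 0.894, 0.795 and 2.47 and was lower at days 3, 6 and 9. Nfkbiz, an inducible nuclear regulator of NF-kappaB, lay at 2.06, 0.994, 1.35, 1.08 and 2.30. Il1b, interleukin 1 beta, differed from these in that day 12 stayed low, with levels of 5.21, 2.40, 3.02, 2.28 and 2.99 and log2 ratios of −1.12, −0.79, −1.19 and −0.80. Not every member of the list was lower. Il1rn, the interleukin 1 receptor antagonist, lay at 1.42, 1.31, 1.46, 1.39 and 1.04, and Tnf at 0.223, 0.218, 0.310, 0.244 and 0.219. Free RNA held Tnf at 0.248 to 0.344, above the members in every library. Ccl6, a chemokine that neutrophils express without stimulation, held 24.0, 24.4, 25.1, 24.6 and 16.2, and its decrease at day 12 passed 1.5-fold in S100-rich members only. Tnf was higher at day 6 in S100-rich members.

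Immediate-early genes, which cells transcribe within minutes of a stimulus without new protein synthesis, were lower in the same libraries. Of 22 genes compared in a list of 23, 14, 11, 18 and 6 were lower at days 3, 6, 9 and 12, beside 3.67%, 2.94%, 3.52% and 5.94% of all genes. Only Klf4 at day 6 was higher. The median log2 ratios were −0.75, −0.57, −0.94 and −0.34, and −0.92, −0.79, −1.18 and −0.31 after centring on the median gene. Among S100-rich members 13, 11, 14 and 6 of 19 were lower.

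Among the AP-1 subunits, Fos lay at 19.3, 8.48, 10.1, 8.84 and 16.0 per 10000, with log2 ratios of −1.19, −0.93, −1.13 and −0.27. Fosb lay at 4.59, 1.80, 2.46, 1.76 and 4.23, again highest at days 0 and 12. Jun lay at 6.88, 3.81, 3.44, 3.46 and 4.37 and remained past 1.5-fold at day 12, with a log2 ratio of −0.66. Dusp1, a phosphatase that switches off MAP kinases, lay at 16.6, 6.35, 8.37, 6.95 and 16.6, with the same level at days 0 and 12. Klf2, a zinc finger factor of quiescent leukocytes, lay at 20.2, 6.88, 6.73, 6.83 and 12.8, with log2 ratios of −1.55, −1.58, −1.56 and −0.66. Atf3, a stress-induced factor, held 0.937, 0.114, 0.274, 0.268 and 0.442 and was lower at all 4 days, with log2 ratios of −3.00, −1.77, −1.80 and −1.08. Free RNA held more Atf3 than the members in every library, at 2.27, 0.435, 0.626, 0.491 and 1.20. Ptgs2, the inducible cyclooxygenase, was also low at every later day, at 0.621 on day 0 and 0.165 to 0.233 after it. Free RNA moved with the same days for several of these genes. It held Fosb at 5.14, 2.63, 3.82, 3.49 and 5.78, above the members in every library. Fos in free RNA lay at 9.80 to 16.8 and Jun at 4.61 to 6.51, above the members at days 3, 6, 9 and 12 for both. The members exceeded free RNA in every library for Dusp1 (4.52 to 10.0 in free RNA) and Klf2 (5.75 to 14.0). The part of free RNA in these differences was not tested.

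Lower genes of these lists were also counted outside the Mmp8 Retnlg neutrophils. In barcodes with 5 or more UMIs of Ltf, 9, 8, 11 and 3 of 22 immediate-early genes and 6, 2, 4 and 0 of 12 cytokine genes were lower, beside 2.78%, 2.34%, 2.63% and 6.19% of all genes. In S100-rich barcodes with fewer than 2 UMIs of Mmp8, 13, 11 and 15 of 19 immediate-early genes were lower at days 3, 6 and 9 and 6 of 20 at day 12, and 7, 5, 7 and 5 of 12 cytokine genes, beside 6.42%, 4.37%, 5.47% and 6.25% of all genes. In Cd79a barcodes 21, 13 and 15 of 22 were lower at days 3, 6 and 9 and 14 of 21 at day 12, beside 19.7%, 5.59%, 8.27% and 10.0% of all genes. Cytokine genes were lower there in 9, 4 and 5 of 11 at days 3, 6 and 9 and 2 of 9 at day 12. These counts are set side by side, and no difference between populations was tested. The median mt- share of the members was higher at days 3, 6 and 9 (0.485 to 0.656%) than at days 0 (0.300%) and 12 (0.399%), and its part in these results was not tested. The mt- gene mt-Nd1 itself lay at 3.59, 11.3, 11.6, 12.0 and 3.74, and at 2.01, 4.66, 6.55, 6.49 and 1.98 in S100-rich members, against 20.4 to 39.2 in Cd79a barcodes.

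**Figure D3:**
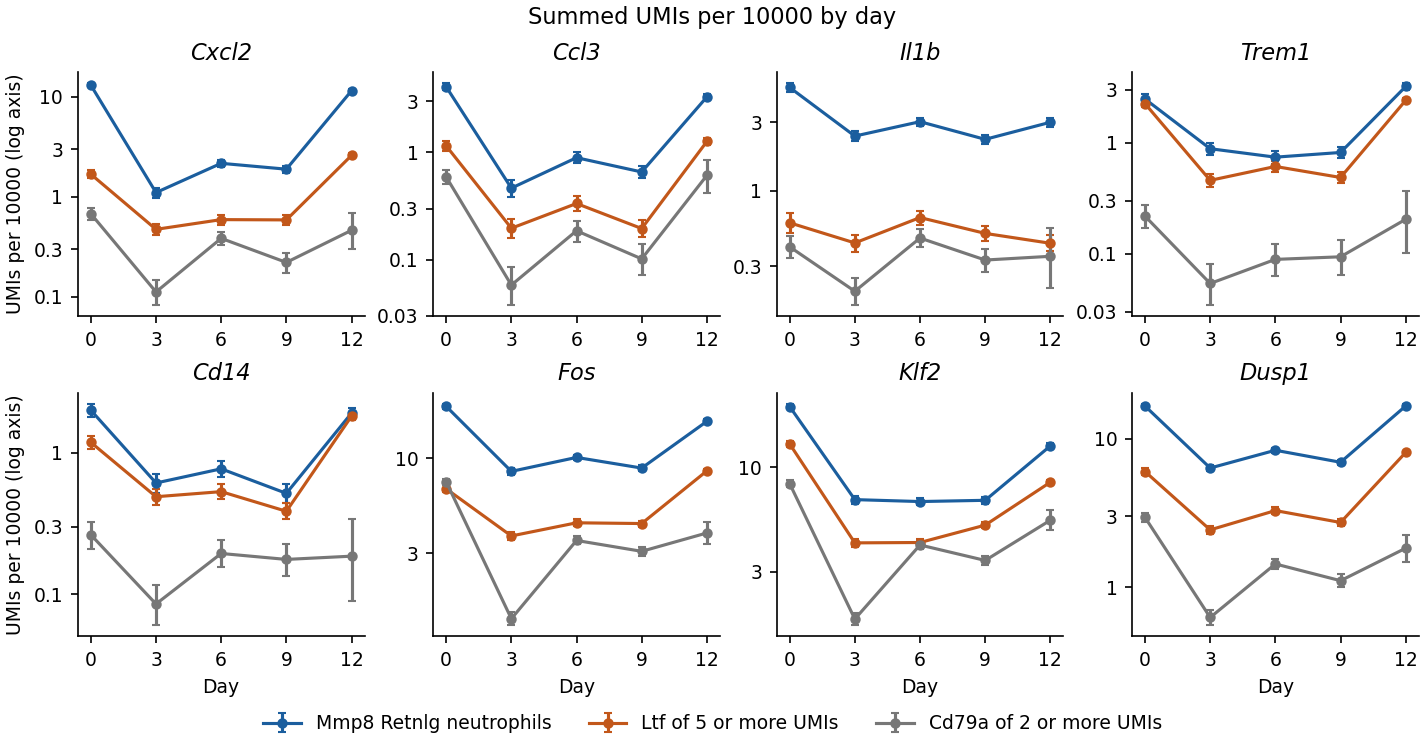
Summed UMIs per 10000 (log axes, which differ between panels) against day for 8 genes, with exact 95% Poisson intervals, in Mmp8 Retnlg neutrophils, in barcodes with 5 or more UMIs of Ltf and in barcodes with 2 or more of Cd79a. Cxcl2 in the Mmp8 Retnlg neutrophils drops from 13.1 at day 0 to 1.10 at day 3 and lies at 11.5 at day 12, whereas Il1b stays at 2.99 on day 12.

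Surface receptors were mostly within 1.5-fold of day 0, with exceptions among the innate receptors. Of 25, 25, 26 and 26 receptors compared in a list of 26, 3, 5, 6 and 1 were lower and 0, 0, 1 and 1 higher at days 3, 6, 9 and 12. Of all genes 3.67%, 2.94%, 3.52% and 5.94% were lower and 18.8%, 19.9%, 20.6% and 5.09% higher. In S100-rich members 3, 4, 4 and 1 receptors were lower and 1, 0, 3 and 2 higher. Trem1, a receptor that amplifies inflammatory signals, lay at 2.48, 0.883, 0.741, 0.816 and 3.21, with log2 ratios of −1.49, −1.74, −1.60 and 0.37. Cd14, the co-receptor for lipopolysaccharide, lay at 1.99, 0.609, 0.767, 0.515 and 1.90. Cd14 in free RNA was above the members at days 3 (0.747) and 9 (0.587) only. Clec4e, the C-type lectin Mincle, lay at 5.78, 2.90, 3.34, 2.60 and 6.02. For these 3 receptors days 0 and 12 were high and the other days low. Clec4d, the related lectin, lay at 7.27, 5.13, 4.49, 3.79 and 4.84 and was lower at days 6, 9 and 12, of which days 9 and 12 remained in S100-rich members. Il1r2, the decoy receptor for interleukin 1, lay at 2.81, 1.88, 1.62, 1.66 and 2.40 and was lower at days 6 and 9, and at day 6 alone in S100-rich members. Fpr2, a formyl peptide receptor, went the other way at day 12, with 2.29, 3.10, 2.64, 3.36 and 3.61, and in S100-rich members it was higher at days 3 and 9 too. Ccr1, a chemokine receptor, was lower at day 9 in all members and within 1.5-fold in S100-rich members. Cxcr2, the chemokine receptor for release from marrow, lay at 3.18, 3.23, 2.70, 2.86 and 2.73, and Csf3r, the receptor for granulocyte colony-stimulating factor, at 3.46, 3.07, 3.11, 2.74 and 2.84, both within 1.5-fold of day 0. Ly6g, the surface antigen used to sort mouse neutrophils, lay at 5.96, 6.02, 5.16, 5.92 and 6.70.

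Few secondary and gelatinase granule genes passed 1.5-fold from day 0. Of 7 secondary granule genes compared in a list of 12, Hp alone was lower, at days 3 and 9, and Camp alone higher, at day 12 and, in S100-rich members, also at day 9. Hp, haptoglobin, lay at 17.5, 10.6, 12.1, 10.7 and 15.2, and in S100-rich members its log2 ratios of −0.55, −0.42, −0.57 and −0.21 stayed within 1.5-fold. Lcn2, the iron-scavenging lipocalin, lay at 44.5, 42.4, 46.2, 44.9 and 41.8, against 12.8 to 24.5 in Cd79a barcodes. Cd177, the surface partner of proteinase 3, lay at 2.70, 2.72, 2.89, 2.77 and 3.42. Camp, cathelicidin, lay at 36.7, 45.1, 41.9, 50.6 and 56.2, and this was below its level in Cd79a barcodes (107, 72.6, 103, 101 and 97.0) in every library. Its value in members is therefore read as background, and its call at day 12 with it. The same limits hold for Ngp, neutrophilic granule protein, at 40.9 to 55.2 in members, 51.9 to 70.7 in Cd79a barcodes and 167 to 211 in free RNA. Among 7 gelatinase granule genes, Adam8, a membrane protease, lay at 2.12, 1.29, 1.27, 1.29 and 2.32 and was lower at days 3, 6 and 9, but within 1.5-fold in S100-rich members.

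Of the 6 subunits of the NADPH oxidase, which makes superoxide, only Cybb was called, higher at day 9, with levels of 1.95, 2.45, 2.74, 3.12 and 2.55. In S100-rich members Cybb was higher at days 3 and 9 and Ncf1 at day 9. Free RNA held Cybb at 3.17 to 5.02, above the members in every library. Primary granule genes were higher in 0, 3, 5 and 1 and lower in 0, 0, 0 and 3 of 7 to 8 genes, beside the 18.8%, 19.9%, 20.6% and 5.09% of all genes that were higher and the 3.67%, 2.94%, 3.52% and 5.94% that were lower. Of 5 to 7 in S100-rich members 0, 1, 1 and 1 were higher and 3, 0, 0 and 0 lower. At day 6, 1 barcode held 342 of 475 UMIs of Ctsg, 23 of 52 of Prss57 and 79 of 129 of Ms4a3. For the genes lower at day 12, 1 barcode of day 0 held 213 of 457 UMIs of Elane, 107 of 252 of Prtn3 and 35 of 137 of Ctsc. For the 5 genes higher at day 9, the top barcode of that day held 10.8 to 20.3%. Of the 6 S100 genes only S100a10 was called, higher at day 6. In S100-rich members it was not called, and S100a4 was higher at days 6 and 12. S100a8 lay at 2070, 1728, 1631, 1664 and 2287. Since S100a8 is a large part of every total, a change in it moves the level of all other genes.

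The stefin A genes, which encode cysteine protease inhibitors, are clustered on chromosome 16, and the 7 of the list placed there span chr16:36156811-36455392 on GRCm38. Their sequences are close to identical, so reads may be split between them and single genes are uncertain. Gm5483 was the most abundant, at 12.2, 14.4, 10.5, 11.4 and 14.4. Stfa1 and Stfa2 were higher at day 3 and Stfa2 and BC100530 at day 12, while Stfa2l1 and Stfa3 were lower at day 6. In S100-rich members BC100530 was higher at day 3 as well, and at day 6 Stfa3 alone was lower. Stfa1 lay at 1.91, 3.77, 1.51, 1.65 and 2.69, and BC100530 at 3.24 on day 12 and 1.13 to 2.18 on the other days. The 7 list genes compared with day 0 included Cstb, whose position was not looked up. BC117090, with 2 to 15 UMIs per library, was left out. The median of the genes compared was positive at day 3 and negative at day 6 also after centring on the median gene, at 0.13 and −0.56.

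Genes induced by interferon had low levels, and some were higher at days 3 and 9. Of 19 to 21 genes compared in a list of 28, 6, 4, 7 and 3 were higher at days 3, 6, 9 and 12, beside 18.8%, 19.9%, 20.6% and 5.09% of all genes. In S100-rich members 8 of 19, 2 of 15, 6 of 19 and 2 of 18 were higher, beside 5.13%, 8.65%, 10.6% and 5.61% of all genes. Slfn4 was lower at days 6 and 9, with levels of 1.98, 1.43, 1.13, 1.15 and 2.55. The list medians of 0.43, 0.20, 0.27 and 0.12 became 0.26, −0.02, 0.04 and 0.15 with ratios centred on the median gene, which turned the sign at day 6. Oas3, an antiviral synthetase, lay at 0.264, 0.510, 0.414, 0.390 and 0.409. Bst2, tetherin, lay at 0.498, 0.890, 1.22, 0.838 and 0.392 and was below its level in Cd79a barcodes (0.989 to 1.52) in every library. A sum of 10 or more UMIs over the interferon genes was reached by 5, 6, 3, 7 and 7 S100-rich members.

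Lists for other cells and for growth were compared beside 18.8%, 19.9%, 20.6% and 5.09% of all genes higher in all members and 5.13%, 8.65%, 10.6% and 5.61% in S100-rich members. Of 15 cell cycle genes compared at days 3, 6 and 9, 10, 12 and 11 were higher, and 0 of 12 at day 12. In S100-rich members 0 of 6, 2 of 6, 5 of 8 and 1 of 6 were higher. Monocyte genes were higher in 1 of 6, 7 of 7, 6 of 7 and 0 of 6, against 0 of 4, 5 of 6, 1 of 6 and 0 of 6 in S100-rich members, so that the day 6 count was not lost without the S100-poor members. The 5 were Ly6c2, Ccr2, F13a1, Fn1 and Ms4a6c. Free RNA held them at 14.4, 1.38, 1.08, 1.47 and 2.35 at day 0 and at 20.5, 2.18, 1.87, 2.55 and 2.86 at day 6. The part of free RNA in this count was not tested. B cell genes were higher in 3 of 7, 5 of 8, 1 of 7 and 0 of 6 and lower in 1, 0, 0 and 5. In S100-rich members they were higher in 0 of 6, 3 of 6, 1 of 7 and 0 of 5 and lower in 4, 2, 2 and 5. Globin genes were higher at day 9 in 4 of 4 in all members and in 3 of 3 in S100-rich members.

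Of 12 glycolysis genes, Tpi1 alone was higher, at days 3, 6 and 9 in all members and at day 6 in S100-rich members, where Hk2 was higher at day 12. Of 8 to 9 heat shock genes 4, 1, 3 and 0 were higher and 1, 1, 1 and 0 lower, the lower one being Dnajb1. Of all genes 18.8%, 19.9%, 20.6% and 5.09% were higher and 3.67%, 2.94%, 3.52% and 5.94% lower. In S100-rich members 0, 1, 0 and 0 of 7 were higher and 2, 1, 1 and 0 lower, and the list median at day 3 was −0.45, against 0.48 in all members.

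**Figure D4:**
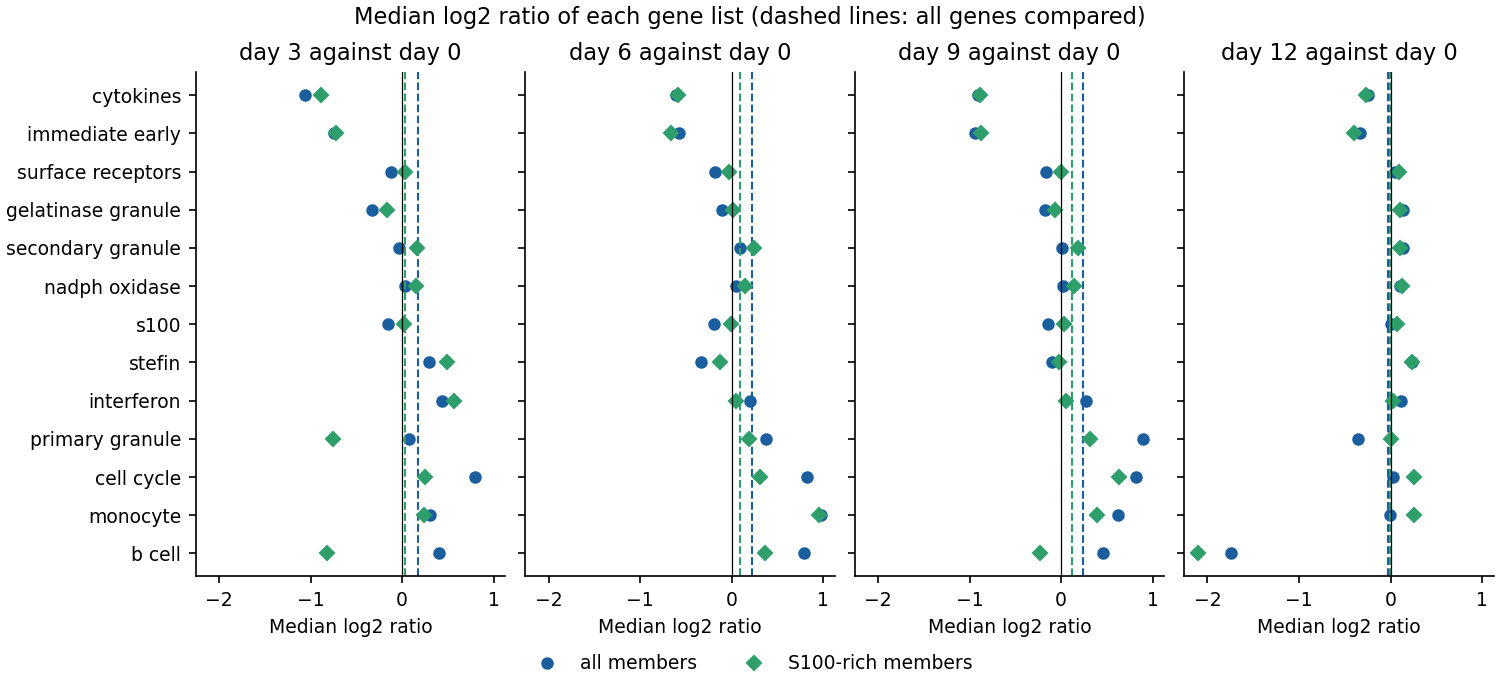
Median log2 ratio to day 0 of each gene list at days 3, 6, 9 and 12, for all members and for S100-rich members, with dashed lines at the median of all genes compared. The cytokine list lies at −1.06, −0.61, −0.91 and −0.25 and the immediate-early list at −0.75, −0.57, −0.94 and −0.34 in all members.

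Collagen, plasma cell and globin genes with large increases at days 3 and 6 rested mainly on 1 barcode. At day 3 the collagen genes Col1a2, Col3a1 and Col1a1 had 338, 329 and 389 UMIs in members, of which 329, 319 and 381 came from 1 barcode. Myl10, a myosin light chain, followed with 366 UMIs, and 84.2% of them lay in S100-poor members. At day 6, Jchain, the joining chain of secreted antibody, had 728 of 906 UMIs in 1 barcode, Sparc 421 of 441, Col2a1 424 of 439 and Hba-a2, a globin, 477 of 514. The light chain gene Igkc had 7693 of 11399 UMIs in 1 barcode of that library. At day 9, Igha, the IgA heavy chain, was spread out, with 315 UMIs over 267 members and 0 at day 0. Free RNA of that library held Igha at 6.01 per 10000, against 0.0215 at day 0. The globin gene Hbb-bs, the mt- genes mt-Nd3 and mt-Nd1 and the histone gene H2afx followed with log2 ratios of 1.98, 1.84, 1.74 and 1.41, and of 1.01 to 2.08 in S100-rich members. In free RNA they lay, in this order, at 2.73, 0.787, 13.4 and 1.69 at day 0 and at 7.36, 3.57, 44.9 and 1.99 at day 9. The part of free RNA in these increases was not tested. Col1a2, Col3a1, Jchain, Sparc, Col2a1 and Igha had 0 UMIs in members at day 0, so no fold is given for them.

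At day 12 the largest differences were in other genes. Suco, a membrane protein of the endoplasmic reticulum, lay at 0.246, 0.188, 0.153, 0.119 and 0.722 and was the most increased, with a log2 ratio of 1.53. BC100530, Map4k4, Stfa2 and Ifitm6 followed, and Ifitm6 had the highest levels, at 11.8, 12.0, 13.4, 14.2 and 21.4. Mcl1, a survival factor of the Bcl2 family, lay at 4.53, 3.83, 4.27, 4.30 and 6.90. The largest decreases were those of Apoe (−2.12), Igkc (−1.97), Vmp1 (−1.38), Cd74 (−1.35) and Ctsc (−1.14) on the log2 scale. Ctsc, the protease that activates granule proteases, had a ratio of 0.00 in S100-rich members, while Vmp1, a gene of autophagy, lay at 0.762 on day 0 and at 0.291 to 0.370 after it.

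Since all ratios share day 0, each library was also set against each of the other 4. Of 7763 genes with at least 50 UMIs over all libraries, 62 (0.799%) were more than 1.5-fold above every other library at day 0 and 364 (4.69%) below. At day 3 the numbers were 155 (2.0%) and 56 (0.721%), at day 6 102 (1.31%) and 28 (0.361%), and at day 9 57 (0.734%) and 26 (0.335%). At day 12, 38 genes (0.49%) were above and 525 (6.76%) below every other library. Days 0 and 12 thus had the most genes below all other libraries, also in S100-rich members, where 5914 genes were compared. There, 63, 19, 51, 42 and 43 genes stood above every other library from day 0 to day 12. The numbers below were 150, 93, 42, 29 and 204. At day 0 the genes above included Ptgs2, Atf3, Vmp1 and Tsc22d3, a target of glucocorticoids that lay at 2.13 on day 0 and at most at 1.14 after it. At day 3 Atf3, Tnfaip3 and Cxcl2 were below every other library. At day 12 Suco, Ets2 (0.363, 0.325, 0.280, 0.317 and 0.650) and Casp4 were above, and globin genes and Cd79b were below.

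Barcodes with more Ltf, a secondary granule gene, were used to place the members in the neutrophil series. Those with 5 or more UMIs numbered 4975, and their median depth of 4087 to 4861.5 UMIs exceeded that of the members. Of 4078 genes, 455 (11.2%) were higher and 121 (2.97%) lower in the members in all 5 libraries. Ltf set both groups, so these differences describe the gate. In S100-rich barcodes of both groups 375 of 3712 genes (10.1%) were higher and 171 (4.61%) lower.

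Secondary granule genes were lower in 7 of 9 cases, which were Camp, Ngp, Lcn2, Chil3, Cd177, Abca13 and Orm1, with a median log2 ratio of −2.15. Camp lay at 446, 405, 392, 434 and 433 in barcodes with more Ltf. Receptors were higher in 8 of 25 cases and lower in 3. The higher ones included Cxcr2, Csf3r, Tlr2, Clec4d and Clec4e, and the lower ones were Ltb4r1, Ly6g and Ceacam1. Cytokine genes were higher in 7 of 11, stefin genes in 5 of 7, interferon genes in 8 of 18 and immediate-early genes in 11 of 22. The genes with the largest difference in the library where it was smallest were Gm5483 (log2 ratio at least 2.89 in all 5 libraries), Ccl6 (2.84), Sirpb1b (2.70), Sirpb1c (2.64) and Amica1 (2.62), an adhesion molecule of neutrophils. The markers Mmp9 and Ceacam10 lay within 1.5-fold of the barcodes with more Ltf in every library. Monocyte genes were higher in 5 of 6 cases in all members and in 0 of 5 in S100-rich barcodes.

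**Figure D5:**
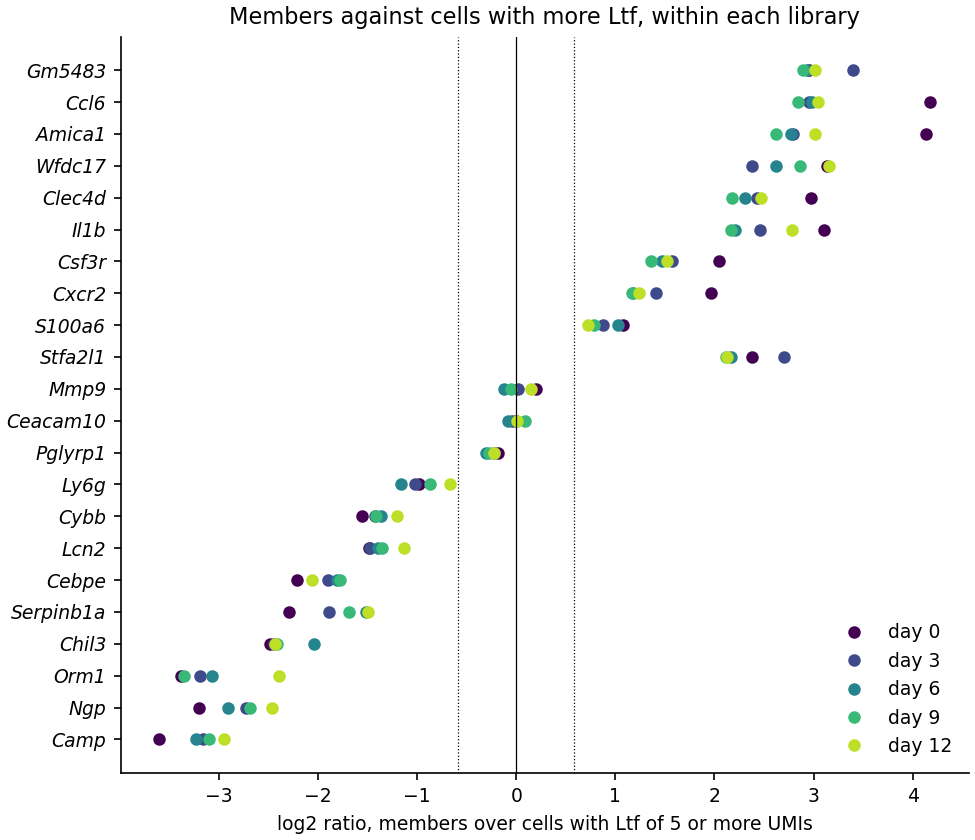
log2 ratio of levels, members over barcodes with 5 or more UMIs of Ltf, for 22 genes with 1 point per library, and dotted lines at 1.5-fold. Gm5483 and Ccl6 lie to the right at 2.84 or more, Camp and Ngp to the left at −2.46 or less, and Mmp9 and Ceacam10 near 0.

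Barcodes with fewer than 2 UMIs of Mmp8 and otherwise the same limits numbered 907, 955, 1350, 1570 and 1297 and held many S100-poor ones. Against all of them, 332 of 6071 genes (5.47%) were higher and 2643 (43.5%) lower in the members. The S100-rich ones numbered 554, 357, 464, 582 and 743, with medians of 1578 to 1749 UMIs, so that a missing Mmp8 UMI can also come from low depth. S100-rich members differed from them past 1.5-fold in all 5 libraries in few of 2587 genes. Higher in members were 5 (0.193%), namely Tinagl1, Acvrl1, Cd177, Itgb2l and Ifitm6, with smallest log2 ratios of 0.88, 0.87, 0.80, 0.62 and 0.61. Lower were 43 (1.66%), led by Wfdc17 (smallest difference 1.49), Il1b (1.43), Sirpb1c (1.15), Nfkbia and Irg1 (0.99). Of 11 cytokine genes 4 were lower, which were Il1b, Cxcl2, Ccl3 and Nfkbia. Cxcl2 lay at 28.0, 5.07, 7.10, 4.27 and 20.2 in the S100-rich barcodes with little Mmp8, and Il1b at 15.3, 9.77, 12.1, 8.98 and 9.05. Cxcl2 was highest at days 0 and 12 there too, and lowest at day 9.

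Among themselves, the S100-rich members varied most in stefin genes, Actb and S100a8. With every member thinned to 1500 UMIs, the ratio of variance to mean over cells, averaged over the libraries, was 15.9 for Gm5483, 13.7 for BC100530, 13.4 for Actb, 12.3 for Stfa1 and 11.1 for S100a8. Wfdc17, a small secreted protease inhibitor, followed at 8.68, and Cxcl2 had 6.04. Gm5483 had a UMI in 20.3%, 27.1%, 19.8%, 22.0% and 21.1% of thinned members, against 2.20 to 3.71% of Cd79a barcodes, and the 10% of members with the most of it held 75.8 to 85.3% of its UMIs. A sum of 10 or more UMIs over the 7 stefin genes was reached by 16.0%, 19.3%, 13.3%, 15.1% and 16.9% of S100-rich members, while 56.5%, 49.2%, 59.7%, 53.3% and 54.6% had 0. A sum of 10 or more was thus found in a minority of cells at every day, while 0 UMIs at this depth does not show absence.

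For Cxcl2, the 10% of members with the most UMIs held 64.0%, 97.2%, 79.5%, 85.2% and 54.4% of all Cxcl2 UMIs. Members with 0 UMIs of Ltf made up 54.5%, 37.8%, 34.0%, 36.1% and 34.2%. When thinned S100-rich members without a UMI of Ltf (358, 389, 419, 469 and 454 cells) were set against those with 1 or more (155, 259, 308, 412 and 397), 0 of 1025 genes passed 1.5-fold in the same direction in all 5 libraries. Depth at this number of cells limits that comparison to abundant genes.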

How the data were processed

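The authors captured marrow cells on the 10x 3′ v2 platform and deposited raw UMI counts per gene and barcode, made with Cell Ranger on mm10, for 5 libraries of 1 mouse each. The annotation release is not given in the sources used here. The limits on UMIs, mt- genes and marker counts given with the results were applied to those counts. The members, gene lists and limits were chosen with earlier results of these data known, and the limit of 15% for S100a8 and S100a9 was added after seeing these data. Counts were summed over members per library, divided by the summed UMIs and multiplied by 10000, and log2 ratios had 1 count added to each sum. Genes needed 50 UMIs, and Mmp8, Retnlg, Ltf, Fcnb and Csf1r were left out of all comparisons. With 1 library per day no test was run, and a call means past 1.5-fold. Shares have Clopper-Pearson and sums Poisson intervals. Shares of cells with a UMI were taken after thinning to 1500 UMIs. No doublet caller was run, and leaving out barcodes with at least 2 UMIs of B or T cell genes was an alternative. Genes named beyond the lists were, for each day, the 5 with the largest increase and decrease among genes with 200 UMIs, for each comparator population the 10 most different in each direction, for each library the 5 most apart, and the 15 with the largest ratio of variance to mean. Mcl1 and Wfdc17 levels by day were named after their values were seen. Cebpd, Cstdc4, Cstdc5 and Cstdc6 were not analysed here. Promoters came from RefSeq on GRCm38.p6 and gene positions from a GRCm38 annotation. Steps were tested on simulated data. Python 3.11.15, numpy 2.4.6, scipy 1.17.1, pandas 2.3.3 and matplotlib 3.10.9 were used.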

Additional observations from a re-analysis of the deposited data

How the results depend on the processing

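The share of members, 9.49%, 15.4%, 14.7%, 15.3% and 17.7% from day 0 to day 12, was lowest at day 0 under every alternative named here. It was 13.1%, 18.3%, 19.1%, 18.8% and 19.0% without barcodes holding B or T cell UMIs. With fewer than 2 UMIs of Ltf it was 7.84%, 10.6%, 9.88%, 10.2% and 11.6%, and with at least 4 of Mmp8 4.31%, 9.49%, 8.86%, 8.34% and 8.50%. Thinning gave 8.07%, 13.5% and 15.7% at days 0, 6 and 12. At days 3, 6 and 9, a limit of 5% on mt- genes gave 16.7%, 16.8% and 17.4%, and S100-rich members alone 14.4%, 13.3% and 14.0%.

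The numbers of genes past 1.5-fold from day 0 (1054, 1128, 1217 and 483 at days 3, 6, 9 and 12) were 250, 285, 398 and 261 after thinning, 314, 297, 345 and 76 with at least 200 UMIs, 3103, 3052, 3120 and 1967 with at least 10, and 327, 314, 299 and 67 at 2-fold. At days 3, 6 and 9 they were 352, 521 and 469 with at least 4 UMIs of Mmp8 and 361, 446 and 574 in S100-rich members. With fewer than 2 UMIs of Ltf they were 446 and 653 at days 3 and 6, and without B or T cell UMIs 517 at day 3. Against barcodes with more Ltf, 576 genes became 252 with at least 200 UMIs, 146 after thinning and 211 at 2-fold. Against barcodes with little Mmp8, 2975 became 1191, 86 and 1587, and 48 in S100-rich barcodes. The genes apart in 1 library (426, 211, 130, 83 and 563) were 69, 40, 24, 12 and 140 with at least 200 UMIs, 120, 50, 30, 8 and 166 at 2-fold, and 213, 112 and 247 at days 0, 3 and 12 in S100-rich members. Fewer genes tested, or a larger fold, lower such counts by construction, and for the other alternatives the cause was not tested.

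Among the genes followed across alternatives, few called log2 ratios changed sign. With at least 4 UMIs of Mmp8 these were Bst2 at days 3 (−0.069) and 9 (−0.26), and Irf8 (−0.16) and Xbp1 (−0.14) at day 9. Without B or T cell UMIs they were Ctsg (−1.38) and Ms4a3 (−0.69) at day 6. With fewer than 2 UMIs of Ltf they were Klf4 at day 6 (−0.19), and Elane (0.80) and Prtn3 (0.60) at day 12. After thinning they were Nfkbia at day 3 (0.00045), and Elane (0.44) and Ier3 (0.016) at day 12. In S100-rich members it was Ctsc at day 12 (0.0048), and signs also turned there among list genes of other cells or functions, such as Mt1 at day 3 (0.60 to −0.51) and Ebf1 at days 3 and 6. No paired analysis was possible because each day has 1 mouse and no test was run, and for the same reason no replicate could be left out. Depth limits genes under about 50 UMIs over a pair of libraries, and 0 UMIs in a library allows up to 3.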
